A study of Mus musculus with 6 samples.

Results

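G protein-coupled receptors are membrane proteins with seven-pass topology that relay signals from outside the cell, and RGS proteins are regulators that shorten those signals. The 34 genes described here were the rows of the deposited table whose symbol begins with Gpr or Rgs followed by a digit, or with Adgr, P2ry, S1pr, Lpar, Ptger, Ednr, Adora, Adra, Adrb, Gprc or Lgr. They comprised 27 receptor genes and 7 RGS genes, out of 3257 genes in the table. RefSeq annotated 171 protein-coding genes with such symbols in the GRCm38.p6 mouse genome, and those without a row were not analysed here.

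RNA was sequenced from primary Sertoli cells, the somatic cells that nourish germ cells inside the seminiferous tubule, in 3 wild-type and 3 UXT knockout (UXT KO) libraries. All cells had the C57BL/6 strain background and were enriched by a 24-hour step of differential plating. Wild-type cells were infected with an empty plasmid. UXT KO cells came from knockout animals and were infected with a viral construct that contained CRE recombinase. Loss of UXT, exposure to CRE, the source animals and the kind of construct therefore cannot be told apart. Infection was done in 2 rounds of 24 hours. The labels give neither the age of the animals nor the promoter behind CRE, and do not say whether replicates represent different animals or cultures. Hence p-values reflect only how libraries varied, which may be technical.

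A ligand-bound receptor loads GTP onto the alpha subunit of a heterotrimeric G protein, which then acts on adenylyl cyclase, phospholipase C or other effectors. RGS proteins accelerate the hydrolysis of that GTP. In Sertoli cells the best known pathway of this kind is that of follicle-stimulating hormone, whose receptor raises cyclic AMP. Adhesion receptors carry long extracellular regions that bind matrix or neighbouring cells, and the lysophospholipid receptors respond to sphingosine-1-phosphate or lysophosphatidic acid.

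The authors had selected the genes of the table on these same libraries: the smallest fold in it was 1.5 and the largest adjusted p 0.0499. Among the 34 genes, Gpr39 lay closest to that fold, at 1.503-fold per the authors' deposited table, followed by Lpar1 at 1.54-fold. No test run here is therefore independent evidence that one of these genes differed. Uxt, the targeted gene, had no row analysed here, so the knockout could not be checked at its own transcript. The medians of the deposited log2 values lay between 9.15 and 9.18 in wild-type and between 8.82 and 8.91 in knockout libraries. The number of reads per library was unknown. How the log2 values per library were transformed is not given in the sources used here. Their differences between groups were mostly smaller than the authors' log2 folds, more so at low values, and are not fold sizes. The values are not per length, so a gene's rank by mean value served only to bin or pick genes and says nothing of which transcript was more abundant. Fold sizes below are the authors', and differences are between the group means of the deposited values.

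Most of these receptor and RGS transcripts were less abundant in UXT KO cells. The libraries were bulk RNA, in which fewer cells of a type and less RNA per cell cannot be told apart. Of the 34 genes, 30 fell, 3 rose and 1 (Gpr141) did not pass (limma, adjusted p under 0.05 over all 3257 genes). Calls covered 99.6% of the table's genes in either direction, so that being called is no result about these genes. The share that fell was 88.2%, beside 67.5% of all genes of the table, and the share that rose was 8.82%, beside 32.1%. Falls were more frequent among the table's genes with low values. Cut into 4 equal bins of mean value, 691 of 815 genes fell in the lowest bin. In each other bin, between 449 and 566 of 814 fell. The lowest bin held 16 of the 34 genes, of which 15 fell, so these shares compare genes of unlike level. The groups did not overlap in 33 of the 34 genes, beside 97.5% of the table's genes. Separate and lower were 30 (65.8% of the table's genes), and separate and higher were 3 (31.7%). A fall of at least 4-fold per the authors' deposited table was listed for 8 of the 34 genes (23.5%) and for 13.5% of all genes. The median fold of the genes listed as lower was 2.53 among the 34 and 2.33 over the whole table, per the authors' deposited table. Both contrasts again compare genes of unlike level. From the lowest bin to the highest, that median was 2.61, 2.22, 2.66 and 2.78 among the 34. Over all genes it was 2.85, 2.42, 1.98 and 1.85. In the lowest bin, a fall of at least 4-fold was listed for 4 of the 16 genes, beside 191 of 815 genes of the table.

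The number of falls depended on the scaling between libraries. Quantile normalization of the deposited values shifted the difference of a gene by a median of 0.26 on the log2 scale over all genes, and their median difference went from -0.40 to -0.07. After it, 12 of the 34 genes were lower, 3 were higher and 19 did not pass. The share of falls among called genes was 80% in place of 90.9%. In the whole table, 1143 genes were lower and 1049 higher, in place of 2200 and 1044 as deposited. The 12 falls were 35.3% of the 34 genes, beside 35.1% of the table's genes in that setting. As a share of all genes the excess of falls was not seen there. Among called genes, the ratio of falls to rises was still larger than in the whole table. Quantile normalization gives every library the same distribution of values. In a table selected for changed genes, most of them lower, it makes falls smaller whatever their source. It therefore cannot decide whether the excess of falls was real. The 3 rises were 8.82%, beside 32.2% of the table's genes. The 3 genes that rose passed under both scalings, but quantile normalization raised the differences of all 34 genes. Their passing there is thus no separate check. Gpr137c, Rgs5, Adra2b and Lpar3 turned to small positive differences, from 0.01 to 0.10, that did not pass. Leaving out single libraries changed the counts among the 34 genes as deposited little, from 28 to 31 genes lower.

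**Figure D1:**
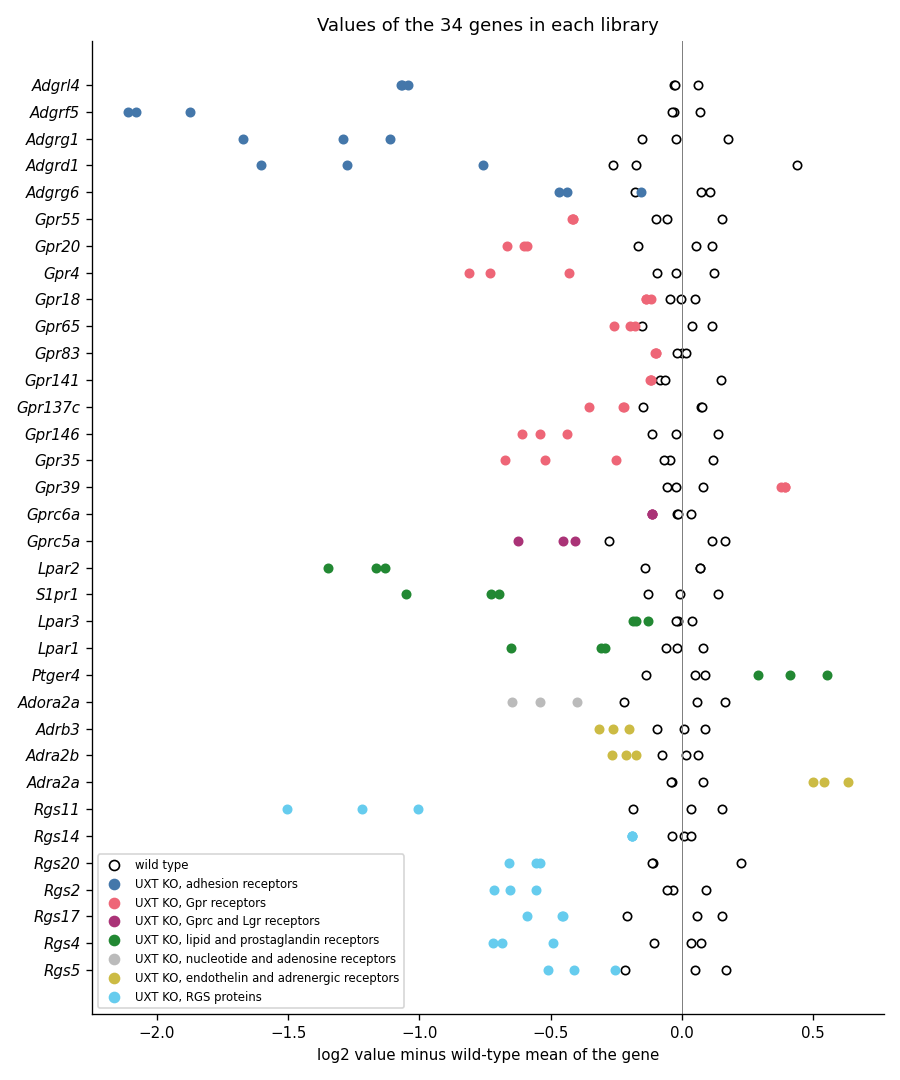
Deposited log2 values of the 34 genes in each library, as the distance from the wild-type mean of the gene (x axis, log2 units), with genes in rows ordered by role. Open points are the 3 wild-type and filled points the 3 UXT KO libraries. The knockout points of Gpr39, Ptger4 and Adra2a lie to the right of the wild-type points, and those of 30 genes wholly to the left. Only Adgrg6 overlaps. After quantile normalization Gpr137c, Rgs5, Adra2b and Lpar3 turned.

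RefSeq listed a promoter for 25 of the 34 genes. The windows below are shown because, among genes with 1 listed start and no annotated exon in the window, these had the 3 largest falls (Adgrl4, Gpr55 and Gpr4) and the only rise (Ptger4). Each is the 250 bases before the listed start in GRCm38.p6, 5′ to 3′ on the gene's strand. The listed start of Gpr55 lies inside the annotated span of that gene. Capitals mark matches, on either strand, to TATAAA (the motif of the TATA-binding protein), CACGTG (the E-box), GGGCGG (the Sp1 box), CCAAT (the motif of nuclear factor Y), CCGGAA (the ETS core), TGACG (the core of the cyclic AMP response element) and TGTTCT (the core of androgen receptor sites). Neighbouring matches may overlap, as those of the first capital run of Ptger4 do.
Adgrl4: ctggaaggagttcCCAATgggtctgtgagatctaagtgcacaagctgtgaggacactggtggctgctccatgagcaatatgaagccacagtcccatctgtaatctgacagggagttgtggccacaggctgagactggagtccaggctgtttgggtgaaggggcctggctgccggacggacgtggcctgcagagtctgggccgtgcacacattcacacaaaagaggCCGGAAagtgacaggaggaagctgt
Gpr55: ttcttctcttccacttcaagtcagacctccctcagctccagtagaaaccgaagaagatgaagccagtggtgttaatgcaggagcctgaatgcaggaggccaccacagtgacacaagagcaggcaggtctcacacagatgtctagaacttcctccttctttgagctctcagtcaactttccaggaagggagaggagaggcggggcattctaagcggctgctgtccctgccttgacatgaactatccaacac
Gpr4: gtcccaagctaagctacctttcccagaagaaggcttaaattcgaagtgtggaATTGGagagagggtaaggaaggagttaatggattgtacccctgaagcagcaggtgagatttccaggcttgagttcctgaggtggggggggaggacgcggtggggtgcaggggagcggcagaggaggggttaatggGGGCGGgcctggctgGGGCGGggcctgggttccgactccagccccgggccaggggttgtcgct
Ptger4: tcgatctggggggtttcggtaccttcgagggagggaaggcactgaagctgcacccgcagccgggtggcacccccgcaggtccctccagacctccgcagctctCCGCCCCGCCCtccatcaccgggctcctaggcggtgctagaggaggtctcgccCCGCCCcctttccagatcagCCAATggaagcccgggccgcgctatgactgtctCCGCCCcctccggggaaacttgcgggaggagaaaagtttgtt
The windows lie at chr3:151437632-151437881 (plus strand) for Adgrl4, chr1:85961056-85961305 (minus strand) for Gpr55, chr7:19212288-19212537 (plus strand) for Gpr4 and chr15:5244188-5244437 (minus strand) for Ptger4. The window of Adgrl4 held the ETS core, 25 bases before the start, and the nuclear factor Y motif. That of Ptger4 held 4 Sp1 boxes and the nuclear factor Y motif. Gpr4 had 2 Sp1 boxes and the nuclear factor Y motif, and the Gpr55 window held none of the 7 motifs.

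A gene was counted for a motif when any of its listed windows held it. Over the 25 genes, the Sp1 box occurred in 12 (48% beside 35.4% of 27025 genes with a listed promoter) and the nuclear factor Y motif in 13 (52% beside 37.5%). The cyclic AMP response core occurred in 7 (28% beside 19.8%) and the androgen receptor core in 6 (24% beside 18.2%). The TATA motif occurred in 4 (16% beside 14.3%), the E-box in 2 (8% beside 6.86%) and the ETS core in 2 (8% beside 13.6%). These are matches of letters and were not tested.

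Adhesion receptors had a median fold of 4.02 in the authors' deposited table, above that of each other role group here. All 5 were lower as deposited, and 4 still passed after quantile normalization, with Adgrg6 at -0.0023 (limma adjusted p = 0.987) in that setting. Adgrl4, an orphan receptor of endothelial cells also called ELTD1, lies at chr3:151437882-151545081 in GRCm38. Adgrl4 had log2 values of 6.60, 6.60 and 6.69 in wild-type and 5.56, 5.56 and 5.59 in knockout libraries. The groups were far apart and the 3 knockout libraries were close to each other. Its fall was 15.5-fold per the authors' deposited table, with a difference of -1.06 ± 0.07 (SE, n = 3 each; limma adjusted p = 7.19e-06), and of -0.65 after quantile normalization. Adgrf5, also called GPR116, restrains surfactant secretion in the lung and is found in endothelium (chr17:43360329-43459557). Wild-type libraries had Adgrf5 log2 values of 9.22, 9.12 and 9.11, and knockout libraries 7.04, 7.28 and 7.07. This was the widest gap among the 34 genes, and Adgrf5 fell 15.3-fold per the authors' deposited table. The difference was -2.02 ± 0.10 (SE, n = 3 each; limma adjusted p = 1.73e-06). The 21 endothelial markers in the table all fell with Adgrl4 and Adgrf5, with Tek turned after quantile normalization, and their part in these falls was not tested.

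Adgrg1, or GPR56, binds collagen III and is needed for the layering of the cerebral cortex. Adgrg1 stood at log2 values of 12.32, 12.65 and 12.45 in wild-type cells and at 10.80, 11.18 and 11.36 in knockout cells. Every knockout value was more than 0.9 below the lowest wild-type value. Adgrg1 fell 4.02-fold per the authors' deposited table, with a difference of -1.36 ± 0.14 (SE, n = 3 each; limma adjusted p = 5.36e-05). Adgrd1, or GPR133, couples to the stimulatory G protein. Wild-type libraries had Adgrd1 log2 values of 11.11, 10.41 and 10.50, and knockout libraries 9.40, 9.92 and 9.07. Libraries of both groups spread more widely for Adgrd1 than for any other of the 34 genes, and wild-type replicate 1 stood above the others. It fell 2.78-fold per the authors' deposited table, a difference of -1.21 ± 0.23 (SE, n = 3 each; limma adjusted p = 0.00105). Adgrg6, or GPR126, is required for myelination by Schwann cells. Adgrg6 stood at log2 values of 5.86, 5.61 and 5.89 in wild-type cells and at 5.32, 5.35 and 5.63 in knockout cells. Knockout replicate 3 lay above wild-type replicate 2, the only overlap among the 34 genes. The difference of Adgrg6 was -0.35 ± 0.11 (SE, n = 3 each; limma adjusted p = 0.0115).

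Of the 5 receptors for lysophospholipids and prostaglandin E2, 4 fell and 1 rose as deposited. Lpar1 and Lpar3 no longer passed after quantile normalization, and Lpar3 turned to 0.03. Lpar1, Lpar2 and Lpar3 are receptors for lysophosphatidic acid. Lpar2 had log2 values of 9.69, 9.90 and 9.90 in wild-type and 8.48, 8.70 and 8.67 in knockout libraries. Both groups were tight and far apart, and Lpar2 (chr8:69822565-69831102) fell 4.23-fold per the authors' deposited table, a difference of -1.22 ± 0.10 (SE, n = 3 each; limma adjusted p = 1.53e-05). Wild-type libraries had Lpar1 log2 values of 11.93, 11.88 and 12.03, and knockout libraries 11.64, 11.65 and 11.30. Lpar1 was lower by 1.54-fold per the authors' deposited table, with a difference of -0.42 ± 0.11 (SE, n = 3 each; limma adjusted p = 0.0043), and knockout replicate 3 stood below the other knockout libraries. Lpar3 was listed as 2.42-fold lower in the authors' deposited table, and its log2 values were 3.89, 3.85 and 3.84 in knockout libraries, all below the wild-type values, the highest of which was 4.06.

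S1pr1, the sphingosine-1-phosphate receptor that keeps vessels tight and lets lymphocytes leave lymphoid organs, also fell (chr3:115710433-115715055). S1pr1 had log2 values of 10.20, 10.06 and 9.94 in wild-type and 9.34, 9.37 and 9.02 in knockout libraries. The groups did not overlap, and knockout replicate 3 was again the lowest. S1pr1 fell 2.53-fold per the authors' deposited table, with a difference of -0.82 ± 0.12 (SE, n = 3 each; limma adjusted p = 0.000246). Ptger4 went the other way. It encodes EP4, a prostaglandin E2 receptor that raises cyclic AMP (chr15:5233399-5244187). Ptger4 stood at log2 values of 7.75, 7.79 and 7.56 in wild-type cells and at 8.11, 7.99 and 8.25 in knockout cells. All knockout libraries were higher, and Ptger4 rose 1.81-fold per the authors' deposited table, a difference of 0.42 ± 0.11 (SE, n = 3 each; limma adjusted p = 0.00476), and of 0.84 after quantile normalization. Exons of Ptger4 share bases with the opposite-strand genes Ttc33 and Gm15937, neither of which had a row analysed here.

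Receptors for adenosine and catecholamines were split. Adora2a, an adenosine receptor that couples to the stimulatory G protein and dampens inflammation, fell 3.01-fold per the authors' deposited table. Adora2a stood at log2 values of 6.27, 6.65 and 6.55 in wild-type cells and at 5.84, 6.09 and 5.95 in knockout cells. The groups were separate, with a difference of -0.53 ± 0.12 (SE, n = 3 each; limma adjusted p = 0.00208), but after quantile normalization it was -0.09 (limma adjusted p = 0.483). Adra2a, an inhibitory alpha-2 adrenergic receptor (chr19:54045259-54048982), rose. Knockout libraries gave 10.27, 10.40 and 10.31 for Adra2a on the log2 scale, and wild-type libraries 9.85, 9.73 and 9.73. Replicates were close and the groups apart, and Adra2a rose 1.88-fold per the authors' deposited table, a difference of 0.56 ± 0.08 (SE, n = 3 each; limma adjusted p = 0.000258). The other two adrenergic receptors were lower as deposited, and neither passed after quantile normalization, where Adra2b turned to 0.01. Adrb3 had log2 values of 4.59, 4.41 and 4.51 in wild-type and 4.24, 4.30 and 4.19 in knockout libraries. Adrb3, the beta-3 receptor of adipocytes, was listed as 2.71-fold lower and Adra2b as 2.30-fold lower per the authors' deposited table. The differences of the deposited log2 values were -0.26 for Adrb3 and -0.22 for Adra2b.

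Among the 11 receptors named Gpr, 9 fell, Gpr39 rose and Gpr141 did not pass. After quantile normalization only Gpr55 and Gpr20 fell, by smaller differences of -0.20 (limma adjusted p = 0.015) and -0.22 (limma adjusted p = 0.0367), and Gpr137c turned to 0.10. Gpr55, a receptor for lysophosphatidylinositol (chr1:85933221-85991583), fell 9.28-fold per the authors' deposited table. Gpr55 had log2 values of 4.61, 4.82 and 4.57 in wild-type and 4.25, 4.25 and 4.24 in knockout libraries. The 3 knockout values were nearly identical, and the difference was -0.42 ± 0.07 (SE, n = 3 each; limma adjusted p = 0.000563). Gpr20, an orphan receptor, fell 4.51-fold per the authors' deposited table. Wild-type libraries had Gpr20 log2 values of 6.43, 6.36 and 6.14, and knockout libraries 5.72, 5.71 and 5.64. Its groups were separate, with a difference of -0.62 ± 0.09 (SE, n = 3 each; limma adjusted p = 0.000295).

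Gpr4 and Gpr65 sense extracellular protons, the first in endothelium and the second in lymphoid cells. Knockout libraries gave 7.26, 6.88 and 6.96 for Gpr4 on the log2 scale, and wild-type libraries 7.66, 7.59 and 7.81. Knockout libraries were lower throughout, and Gpr4 fell 2.68-fold per the authors' deposited table. Gpr65 was listed as 2.42-fold lower in the authors' deposited table, and without knockout replicate 1 it no longer passed (limma adjusted p = 0.0582). Gpr137c, listed as 2.01-fold lower there, did not pass without that library either (limma adjusted p = 0.063). Gpr146, which influences plasma cholesterol, fell 1.91-fold and Gpr35, a receptor that responds to kynurenic acid, 1.77-fold per the authors' deposited table. Gpr18 was listed as 2.64-fold and Gpr83 as 2.36-fold lower per the authors' deposited table. For Gpr141 the log2 values were 2.85, 2.62 and 2.63 in wild-type and 2.58, 2.58 and 2.58 in knockout libraries. Wild-type replicate 1 stood apart for Gpr141, and the difference was -0.12 ± 0.06 (SE, n = 3 each; limma adjusted p = 0.0603). Without that library it was -0.05 (limma adjusted p = 0.0526).

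Gpr39, a receptor activated by zinc, was the Gpr gene that rose (chr1:125676996-125873862). Gpr39 stood at log2 values of 12.89, 12.996 and 12.86 in wild-type cells and at 13.31, 13.31 and 13.29 in knockout cells. Every knockout library was higher than every wild-type library. Its rise was 1.503-fold per the authors' deposited table, a difference of 0.39 ± 0.07 (SE, n = 3 each; limma adjusted p = 0.00096), and of 0.65 after quantile normalization. Exons of Gpr39 overlap those of Lypd1 on the opposite strand, and Lypd1 rose 3.18-fold per the authors' deposited table. The library kit was stranded, but whether reads were counted by strand is not given in the sources used here. Reads on the bases that exons of Gpr39 and Lypd1 share therefore cannot be told apart. How many reads fell there was not examined. The same holds for Gpr55 and 4933407L21Rik, which fell 2.21-fold, and for Rgs11 and Arhgdig, which fell 1.75-fold per the authors' deposited table. Of the 34 genes, 9 had such an overlap on the opposite strand and 0 on the same strand.

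Both family C receptors fell as deposited, and neither passed after quantile normalization. Gprc5a, an orphan receptor induced by retinoic acid, was listed as 2.18-fold lower in the authors' deposited table, with log2 values of 7.70, 7.75 and 7.31 in wild-type and 7.18, 7.13 and 6.96 in knockout libraries. Gprc6a, a receptor for basic amino acids, was listed as 2.58-fold lower there. Wild-type libraries had Gprc6a log2 values of 2.74, 2.79 and 2.74, and knockout libraries 2.64, 2.64 and 2.64. The knockout values were nearly identical and below all wild-type values, with a difference of -0.11 ± 0.03 (SE, n = 3 each; limma adjusted p = 0.00426). Fitted without the mean-variance trend, Gprc6a did not pass (limma adjusted p = 0.113), nor did Gpr18 (0.0852) or Gpr83 (0.149).

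**Figure D2:**
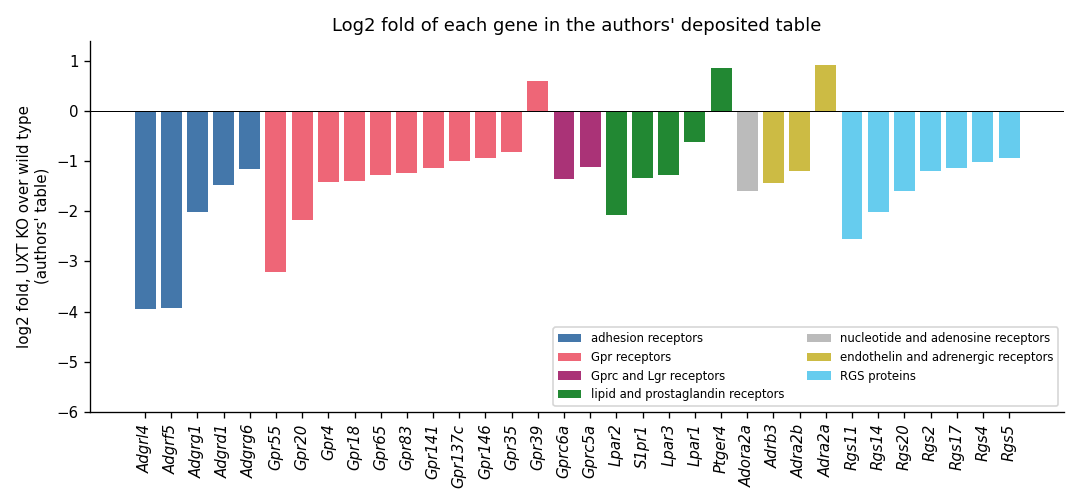
Log2 fold, UXT KO over wild type, of each of the 34 genes in the authors' deposited table (y axis, log2 units), coloured by role. Bars for Gpr39, Ptger4 and Adra2a point up and 31 point down, the longest being Adgrl4 and Adgrf5 at more than 15-fold lower. After quantile normalization of the values per library Gpr137c, Rgs5, Adra2b and Lpar3 had positive differences.

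All 7 RGS genes fell as deposited. Their median fold was 2.28 per the authors' deposited table. After quantile normalization Rgs11 (-0.81), Rgs4 (-0.47), Rgs2 (-0.24, limma adjusted p = 0.0417) and Rgs14 (-0.10) fell by smaller differences, Rgs17 and Rgs20 did not pass and Rgs5 turned to 0.04. Rgs11 belongs to the RGS proteins that pair with the fifth G protein beta subunit (chr17:26202527-26211324). Rgs11 had log2 values of 7.72, 7.95 and 8.06 in wild-type and 6.40, 6.90 and 6.69 in knockout libraries. The lowest wild-type value was above the highest knockout value by more than 0.8, and Rgs11 fell 5.86-fold per the authors' deposited table. The difference was -1.24 ± 0.14 (SE, n = 3 each; limma adjusted p = 8.27e-05). Rgs14, which also binds Ras and inactive G alpha subunits, fell 4.04-fold per the authors' deposited table. Wild-type libraries had Rgs14 log2 values of 3.48, 3.51 and 3.44, and knockout libraries 3.29, 3.29 and 3.28. Knockout values were nearly identical, and the difference of log2 values was small, -0.19 ± 0.04 (SE, n = 3 each; limma adjusted p = 0.001).

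Rgs20 and Rgs17 are related proteins that act on Gz. Rgs20 stood at log2 values of 7.19, 6.86 and 6.85 in wild-type cells and at 6.43, 6.41 and 6.31 in knockout cells. Wild-type replicate 1 stood above the others, and Rgs20 fell 3.03-fold per the authors' deposited table, a difference of -0.58 ± 0.11 (SE, n = 3 each; limma adjusted p = 0.001). Rgs17 fell 2.22-fold per the authors' deposited table. Rgs2, a regulator with a preference for Gq, fell 2.28-fold per the authors' deposited table, from log2 values of 8.88, 8.86 and 9.005 in wild-type to 8.26, 8.36 and 8.20 in knockout libraries. Rgs4 and Rgs5 lie next to each other on chromosome 1, 45.7 kb apart, at chr1:169741477-169747642 and chr1:169655501-169695813. Knockout libraries gave 9.75, 9.98 and 9.79 for Rgs4 on the log2 scale, and wild-type libraries 10.37, 10.55 and 10.51. Replicates were tight, and Rgs4 fell 2.03-fold per the authors' deposited table, a difference of -0.63 ± 0.09 (SE, n = 3 each; limma adjusted p = 0.000275). Rgs5, a marker of pericytes and smooth muscle, fell 1.92-fold per the authors' deposited table. Rgs5 had log2 values of 7.09, 7.36 and 7.48 in wild-type and 6.90, 7.05 and 6.80 in knockout libraries. Its groups were separate by a narrow margin, with a difference of -0.39 ± 0.12 (SE, n = 3 each; limma adjusted p = 0.0112). Of the 12 myoid and smooth muscle markers in the table, 11 were also lower. After quantile normalization 8 were lower and Tagln turned, and the part of these markers was not tested.

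In 5 genes the knockout libraries gave almost the same value. The 3 knockout values of Gpr55, Gpr83, Gpr141, Gprc6a and Rgs14 lay within 0.00421 of each other on the log2 scale. Their wild-type values spanned 0.0348 to 0.251. Knockout values within 0.01 of each other occurred in 14.7% of the 34 genes and in 1.54% of the table's genes. These shares compare unlike levels, as all 5 genes were in the lowest of 4 bins of mean value, which held 16 of the 34. The median knockout SD of the table's genes was 0.056 in that bin and 0.117 to 0.128 in the others. In each of the 5 genes, knockout replicate 2 had the highest and knockout replicate 3 the lowest of the knockout values. No counts were used, so whether these 5 genes had any reads in knockout libraries was not tested. The closeness of their knockout values is therefore no sign of precise measurement.

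The share of the authors' fold that the values per library carried followed the mean deposited value. Among the 34 genes, the difference of means was between 0.0817 (Gpr83) and 0.822 (Adgrd1) of the log2 fold per the authors' deposited table. The median ratio was 0.426 for the 34 genes and 0.58 for the whole table. With the table's genes ranked by mean value and cut into 4 equal bins, 16 of the 34 genes were in the lowest bin, where the median ratio of all genes was 0.243. A small difference in a gene such as Rgs14 or Gpr55 can thus stand beside a large fold.

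**Figure D3:**
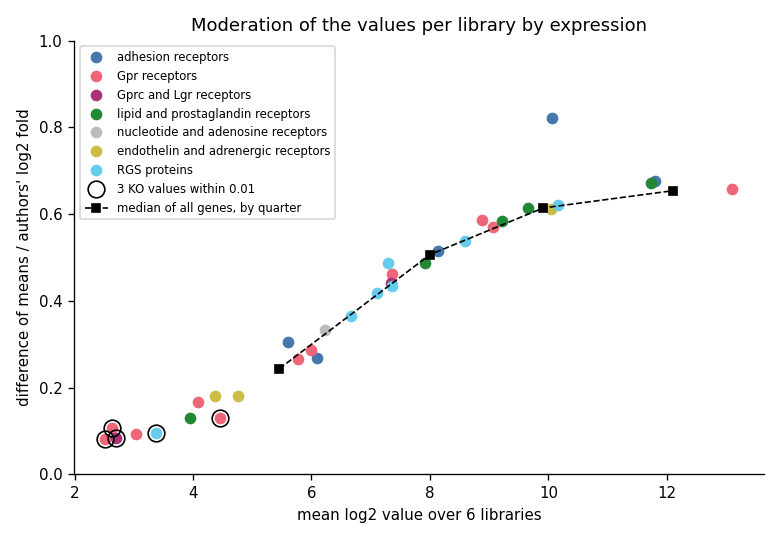
Ratio of the difference of group means to the authors' log2 fold (y axis, no unit) against the mean log2 value over 6 libraries (x axis) for the 34 genes, coloured by role. Squares joined by a dashed line are the medians of all genes of the table by bin of mean value (4 equal bins), from 0.243 to 0.654. Rings mark the 5 genes whose knockout values lie within 0.01 of each other, all on the left.

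**Figure D4:**
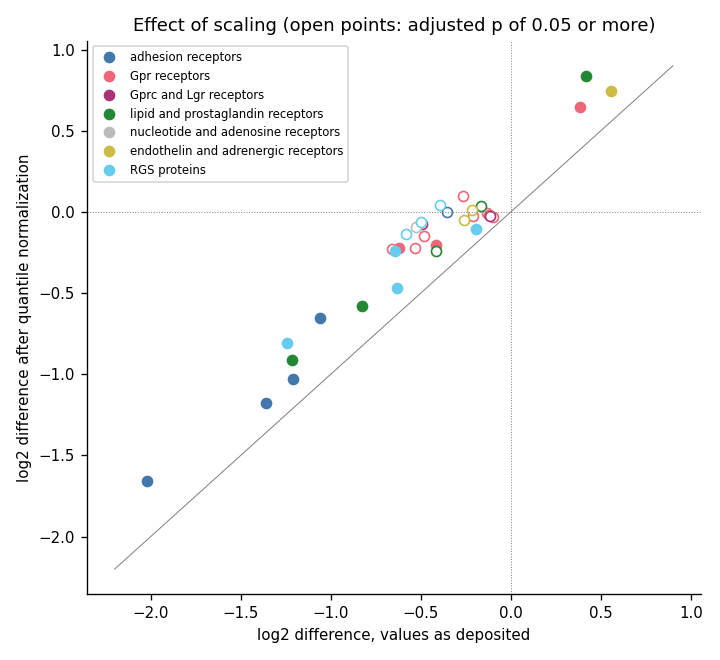
Difference UXT KO minus wild type after quantile normalization (y axis, log2 units) against that of the values as deposited (x axis, log2 units) for the 34 genes, coloured by role. The solid line marks equal values, and all points lie above it. Filled points passed after quantile normalization: 12 lower and 3 higher. Gpr137c, Rgs5, Adra2b and Lpar3 lie above 0 on the y axis only.

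Other genes of the pathway were taken from lists, given here by how many members had a row and were called. Of all genes of the table, 67.5% were called lower and 32.1% higher as deposited. After quantile normalization these shares were 35.1% and 32.2%. The lists were not tested against these shares. Of 128 other receptors, 30 had a row: 23 fell, 6 rose, and 1, the cannabinoid receptor gene Cnr1, did not pass (difference 0.19, limma adjusted p = 0.0527). Their median log2 fold was -1.45 in the authors' deposited table, beside -0.88 for all genes and -1.28 for the 34 genes. The formyl peptide receptor gene Fpr1 fell 7.75-fold and the fractalkine receptor gene Cx3cr1 7.65-fold per the authors' deposited table. After quantile normalization 13 of these receptors were lower and 7 higher, and Ptgir, Cmklr1 and Vipr2 turned.

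Of 28 G protein subunits, 5 were in the table, with 4 lower and 1 higher. Gna14 and Gna15, alpha subunits of the Gq family, fell 6.41-fold and 2.71-fold, and the beta subunit gene Gnb3 fell 6.08-fold per the authors' deposited table, and 2 of the 4 falls still passed after quantile normalization. All 8 cyclic AMP genes in the table, of 37, were lower, with 3 lower and Adcy4 turned after quantile normalization. The cyclase gene Adcy4 fell 2.19-fold, the anchoring protein gene Akap12 2.14-fold and the phosphodiesterase gene Pde1a 1.95-fold per the authors' deposited table. All 6 genes of phospholipase C, diacylglycerol and calcium signalling in the table, of 21, fell, and 5 fell after quantile normalization, with Prkcq turned. The protein kinase C genes Prkch and Prkcb fell 4.04-fold and 3.78-fold, and the kinase gene Dgka fell 2.42-fold per the authors' deposited table.

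Of 32 receptor kinases, arrestins and other regulators, 6 were in the table, with 5 lower and 1 higher, and 3 lower after quantile normalization. Gprasp2, which sorts receptors to lysosomes, fell 6.56-fold, and the receptor partners Ramp1 and Ramp3 fell 3.01-fold and 2.89-fold per the authors' deposited table.

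Among genes that make or clear the ligands, 16 fell and 4 rose of the 20 in the table, of 50. After quantile normalization 11 fell. Mme, a peptidase that degrades small peptides, fell 6.15-fold, the endothelin gene Edn1 4.99-fold and the ectonucleotidase gene Entpd1 4.91-fold per the authors' deposited table. Among the cyclic AMP-responsive and feedback genes, 11 of 25 were in the table, and 7 rose and 4 fell. Fos fell 4.08-fold and the inhibin gene Inha 3.09-fold, while Fosb rose 3.04-fold per the authors' deposited table. All 7 rises and 2 of the 4 falls passed after quantile normalization. The lists share Pde4b, and Star stands on the feedback and the Leydig lists.

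**Figure D5:**
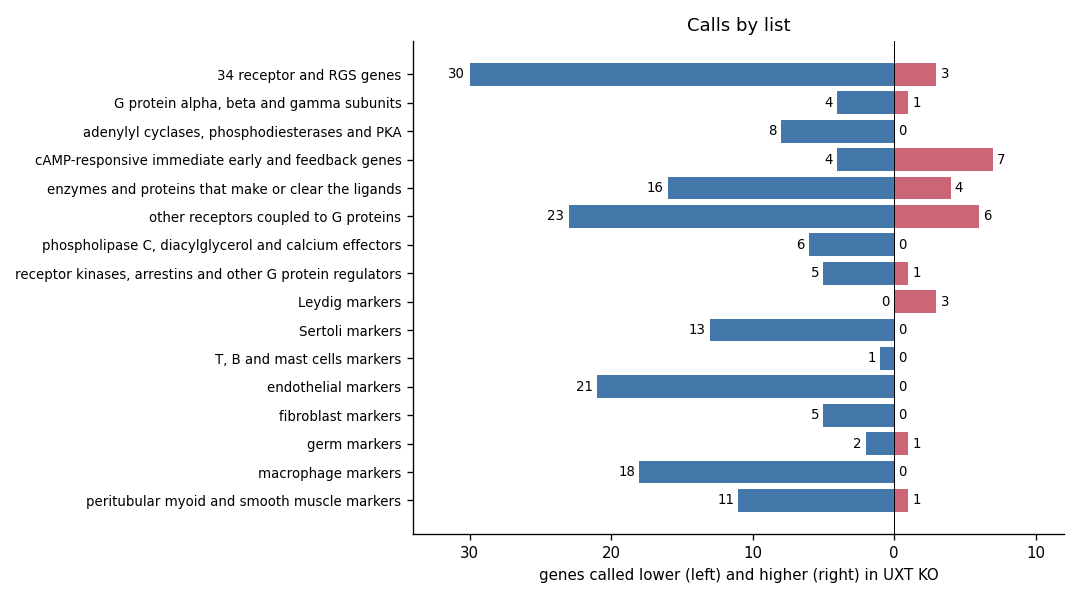
Number of genes called lower (blue, left) and higher (red, right) in UXT KO among the 34 genes, the pathway lists and the cell type marker lists (x axis, genes, with values as deposited). The bar of the 34 genes reads 30 and 3. Genes that turned after quantile normalization were Tek, Sycp3, Lyz1, Tagln, Adcy4, Ptgir, Cmklr1, Vipr2 and Prkcq, besides 4 of the 34.

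Most markers of other cell types with a row also fell, beside 67.5% of all genes of the table. Of 23 endothelial markers, 21 were in the table and all fell, with Tek turned after quantile normalization. Their summed log2 deviation from the wild-type mean ranged from -1.48 to 1.34 in wild-type and from -29.74 to -27.95 in knockout libraries. Of 20 macrophage markers, 18 were in the table and all fell, with 16 lower and Lyz1 turned after quantile normalization. Their sum ranged from -3.02 to 2.39 in wild-type and from -25.51 to -22.13 in knockout libraries. Among the 34 genes, Adgrl4, Adgrf5, S1pr1 and Gpr4 are known from endothelium, and Gpr65, Gpr35 and Gpr18 from leukocytes. The part of such cells in the falls was not tested.

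Of 14 markers of myoid and smooth muscle cells, 12 were in the table, with 11 lower and 1 higher. After quantile normalization 8 were lower and Tagln turned. Their sums ranged from -2.11 to 1.65 in wild-type and from -10.86 to -7.22 in knockout libraries. The 5 fibroblast markers in the table, of 12, fell, with sums from -0.61 to 0.59 and from -5.41 to -2.07. After quantile normalization 2 of them fell. The 3 Leydig markers in the table, of 9, rose, with sums from -0.47 to 0.51 and from 1.98 to 3.82. Germ cell markers gave 2 falls and 1 rise among 3 in the table, of 15, with sums from -0.40 to 0.30 and from -1.82 to -1.40, and Sycp3 turned after quantile normalization. Kit, which is also on the germ cell list, was the 1 gene in the table of 14 markers of T, B and mast cells, and its deviation was from -0.03 to 0.03 in wild-type and from -1.91 to -1.70 in knockout libraries.

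Sertoli cell markers were present and lower. Of 20 markers, 13 were in the table and all fell, with sums from -1.47 to 1.20 in wild-type and from -16.68 to -12.78 in knockout libraries, and 10 fell after quantile normalization. They included the transcription factor genes Sox9 and Wt1, whose log2 means went from 11.77 to 11.21 and from 12.39 to 10.99. Fshr, the receptor gene by which Sertoli cells respond to follicle-stimulating hormone, had no row analysed here.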

How the data were processed

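RNA was sequenced from 3 wild-type and 3 UXT KO libraries of primary mouse Sertoli cells, grouped by sample title. Per the submitters' processing notes, the tools were FastQC, STAR and DESeq2 (no versions listed) and the build was mm10. Not given in the sources used here are the read counter, its use of strand and the annotation. What the authors deposited was 1 table of 3261 rows with a signed fold score, a log2 fold change, p-values, adjusted p-values and normalized log2 values per library, per the file headers. Efna1 and Hmga1 stood on 2 rows each, and these 4 rows were left out. Another gene that matched the names, a gene of the other receptors and 1 pathway list are not reported here.

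The whole table was fitted with limma 3.58.1 in R 4.3.3 (mean-variance trend, no covariate), and p-values were adjusted by Benjamini-Hochberg over 3257 genes. Genes were called at an adjusted p under 0.05 and an authors' fold of at least 1.5. The fit was tested on simulated data in which, unlike in the deposited table, most genes did not differ. That test checked the code and says nothing of the calls made here. Depth was unknown, so no counting interval was computed. Genes named with full values were those that rose, the 12 largest falls, the 3 further falls with the highest mean value, the largest fold of a role group with none named, the largest SD and any gene not called, and the 3 largest folds of each pathway list. Others given were chosen after their values were seen. The genes and lists were chosen with earlier results of these data known.

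Alternatives were quantile normalization, no trend, an adjusted p of 0.01, a fold of 2, a filter on low values, a replicate block and leaving out each library. Gene positions and promoters came from RefSeq (GRCm38.p6), matched by gene ID, and exon overlaps from GENCODE M21 (GRCm38).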

Additional observations from a re-analysis of the deposited data

How the results depend on the processing

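After quantile normalization 12 of the 34 genes were lower, and 1143 genes of the whole table were lower and 1049 higher. With the lowest of 4 equal bins of mean value left out, 16 of the 34 genes were not in the fit and 15 of the others were lower. When the authors' fold had to reach 2, 0 of the 34 genes were higher by limma, and the table had 302 higher and 1438 lower genes. The 3 genes that rose had authors' folds under 2, and all 3 passed limma at the main threshold. At an adjusted p under 0.01, Gpr65, Gpr137c, Rgs5 and Adgrg6 were no longer called. Deviations of wild-type and knockout libraries with the same replicate number had correlations of 0.177, -0.0731 and -0.00388. With 3 libraries per group these cannot decide whether libraries were paired by number. With the replicate block 31 of the 34 genes were lower, Gpr141 passing at a limma adjusted p of 0.0499. Gpr141 also passed without wild-type replicate 2 (0.0217) or 3 (0.0356), not without replicate 1 (0.0526). Over 20 genes named by rule and 11 settings, the fold of 2 not among them, 202 of 211 values kept direction and side of the threshold, 6 lost and 3 gained the call, and 0 reversed. At a fold of 2, Gpr39, Adra2a, Ptger4 and Lpar1 of these 20 lost it. Each of Adora2a, Adrb3, Gprc6a, Lpar1 and Rgs20 lost it after quantile normalization. The 20 genes hold the 12 largest falls, so their tally does not describe all 34. Over the 34 genes, quantile normalization took the call from 14 without turning them. It turned 4 more, Gpr137c, Rgs5, Adra2b and Lpar3, which are not among the 20.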

Other observations

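The 34 genes lay on 16 chromosomes, 7 of them on chromosome 1, where Rgs4 and Rgs5 were the closest pair. The next closest pair on any chromosome, Lpar3 and Adgrl4, was 5151.7 kb apart. The 250 bases before the start had a median GC content of 60% in the 25 genes with a listed promoter and 52.4% over all 27025 genes, and a median of 11 CpG sites beside 6. Where a gene had several listed starts, the mean GC content and the largest CpG number were used. The difference was not tested.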
